A study of Solenopsis invicta with 4 samples.

Results

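The comparison describes 339 assembled transcripts (contigs) from the fire ant Solenopsis invicta, in workers held at 40 °C against workers held at 20 °C. Both deposited lists that hold them were made against a 30 °C control, and a contig was taken if it stood in the 20 °C list and in the 40 °C list and its annotation named the ant. Of 2953 contigs listed at 20 °C and 4067 listed at 40 °C, 713 stood in both, and 339 of these carried an ant annotation, out of 9001 contigs in the 3 lists together. The ratio of 40 to 20 °C was taken directly between those libraries, so that the 30 °C library entered through the choice of contigs and not through the values.

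The study exposed medium workers, a middle size class of the sterile caste, to 10, 20, 30 or 40 °C for 24 h and sequenced the messenger RNA of whole adult bodies. All groups were wild type ants of the strain labelled RIFA from colonies kept at 25 °C on sucrose solution, mealworm and artificial diet. Each temperature was 1 library, and the labels do not say how many ants or colonies went into it. No replicate check of any difference was therefore possible, and each value below compares a pair of libraries. A whole body mixes brain, antennae, fat body, gut, muscle and glands, and in such bulk RNA fewer cells of a type and less RNA per cell cannot be told apart.

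An ant cannot hold its body temperature, so its chemistry, nerve activity and water loss follow the air around it. Insects meet heat with chaperones, a remodelled cuticular wax and changed metabolism, and meet cool conditions with changed membrane lipids and sugar transport. Odorant-binding and chemosensory proteins are small secreted carriers that shuttle hydrophobic molecules such as odours, pheromones and lipids through the fluid of the antenna, and many of them are also made outside sense organs. In ants they belong to large gene families whose members have near-identical relatives.

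Levels are given as counts per 1000000 reads of library size (CPM) on the authors' own library scaling, in which a single read equalled 0.0431 CPM in the 20 °C library and 0.0230 CPM in the 40 °C library. Scaled library sizes were 23204029 at 20 °C, 38277639 for 30 °C and 43393168 for 40 °C. The deposited FPKM values (fragments per kilobase of transcript and total reads) rest on total reads instead, and on that scaling every plain ratio of 40 over 20 °C was 2.22 times as high, or 1.15 on the log2 scale. The log2 ratios quoted below carry a pseudocount of 1 CPM and move by less. Intervals in brackets are exact Clopper-Pearson 95% intervals. They reflect counting error alone, and without molecular identifiers a read need not be a separate molecule. Contigs were counted as higher or lower when log2(CPM + 1) differed by at least 2-fold, and were counted at all when the mean over the 20 and 40 °C libraries was at least 1 CPM. The other 142 contigs, with at most 73 reads in either library, were described but not counted.

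Of the 197 counted ant contigs, 57 (28.9%) were at least 2-fold higher at 40 °C than at 20 °C, 20 (10.2%) were at least 2-fold lower, and 120 lay within 2-fold. Among all 366 counted contigs of both lists, which include the ant contigs, the shares were 24.0% higher and 15.3% lower. The 169 counted contigs without an ant annotation had 18.3% higher and 21.3% lower. Their difference from the ant contigs was not tested. The median log2 ratio was 0.16 for the ant contigs and 0.00 for all. On the FPKM scaling 101 ant contigs (51.3%) were higher and 16 (8.12%) were lower, against 43.2% and 13.1% of all counted contigs, and the median was 1.03. The 57 higher and 16 of the 20 lower ant contigs passed 2-fold in the same direction on both scalings.

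The side of 30 °C on which a contig stood in each list sorted the ant contigs into 4 sets. There were 51 contigs below 30 °C at 20 °C and above it at 40 °C, 26 above at 20 °C and below at 40 °C, 118 above at both temperatures, and 144 below at both. In the first pair of sets the direction of the 40 to 20 °C ratio was fixed by the choice of contigs, because the smallest deposited folds were 2.36 at 20 °C and 2.35 at 40 °C, which multiply to 5.54. Their sizes are therefore descriptions. Of the 51 contigs, 48 were counted and all 48 were higher at 40 °C, with a median log2 ratio of 2.42 and CPM ratios between 5.88-fold and 151-fold. Of the 26, 18 were counted and all 18 were lower, 16 of them on the FPKM scaling too. Their median log2 ratio was -1.88, with CPM ratios of 20 over 40 °C between 6.32-fold and 189-fold. Among the 262 contigs on the same side, for which the choice fixed no direction, 131 were counted, 9 were higher, 2 were lower and 120 lay within 2-fold.

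The contigs higher at 40 °C had more reads than those higher at 20 °C. The higher library held a median of 297 reads over the 51 contigs and up to 16993, and 15 of the 51 had over 1000 reads there. For the 26 contigs that were higher at 20 °C the median was 61.5 reads and the highest value 577. The median level of the 51 contigs was 0.345 CPM at 20 °C, 1.75 CPM at 30 °C and 6.84 CPM at 40 °C. That of the 26 was 2.65, 0.718 and 0.115 CPM. These opposite slopes follow from the choice of contigs. The 40 °C library was the larger of the pair in scaled size but the smaller in total reads. Relative to the 30 °C library, total reads were 0.793 at 40 °C and 0.943 at 20 °C.

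**Figure D1:**
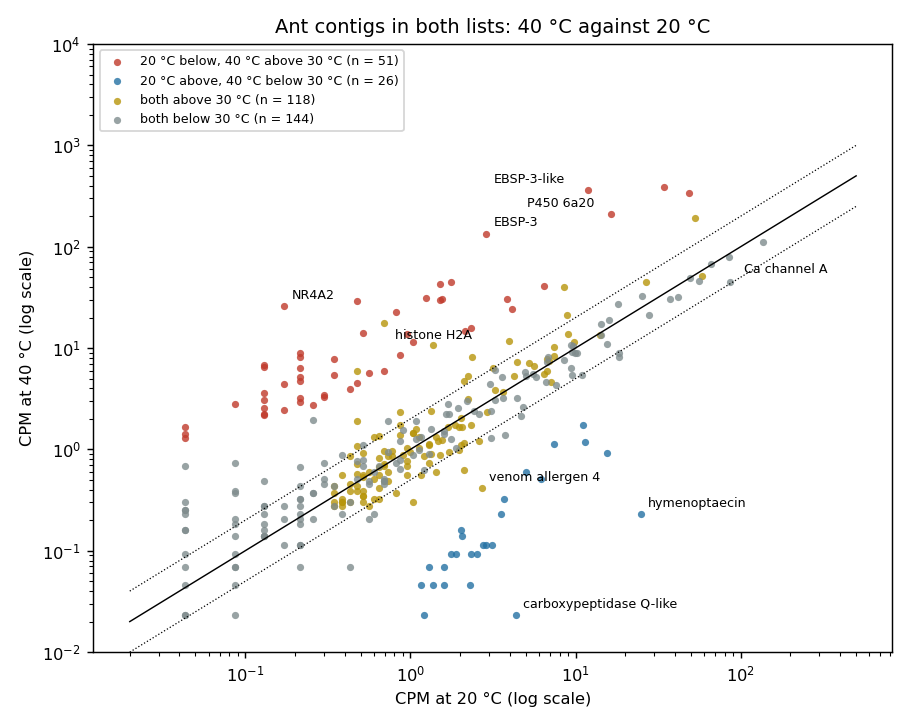
Each point is 1 of the 339 ant contigs, with its level at 20 °C on the x axis and at 40 °C on the y axis, both in CPM on log scales. The solid line marks equal levels, the dotted lines mark 2-fold, and colours give the side of 30 °C at each temperature. EBSP stands for ejaculatory bulb-specific protein, NR4A2 for nuclear receptor subfamily 4 group A member 2 and Ca channel A for the type A calcium channel. EBSP-3-like (LOC105196234) lies at 362 CPM at 40 °C among the highest red points, and the highest blue point, hymenoptaecin, lies at 24.9 CPM at 20 °C.

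Carrier proteins of the chemical senses were much more abundant at 40 °C. Odorant-binding and chemosensory proteins had 7 contigs, all 7 of which were counted and higher at 40 °C on both scalings, with a median log2 ratio of 4.06 and a range from 1.82 to 5.13. Together they held 484 reads at 20 °C, 3219 at 30 °C and 28145 at 40 °C, that is 20.9, 84.1 and 649 CPM. All 7 were among the 51 contigs on opposite sides of 30 °C, so the shared direction was fixed by the choice and the sizes are a description. The deposited lists named 9 such contigs at 20 °C and 16 at 40 °C.

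Ejaculatory bulb-specific protein 3 (LOC105196182), a member of the insect chemosensory protein family named after its first site of description in the fruit fly, had 67 reads or 2.89 CPM at 20 °C, 490 reads or 12.8 CPM at 30 °C and 5852 reads or 135 CPM at 40 °C. Its level was 46.7-fold (36.7 to 60.3) higher at 40 than at 20 °C, and 104-fold higher on the FPKM scaling. Its relative LOC105196234 had 275 reads or 11.9 CPM at 20 °C and 15711 reads or 362 CPM at 40 °C, a ratio of 30.6-fold (27.1 to 34.5). Per transcript length, LOC105196234 was the more abundant of the pair at 40 °C, with an FPKM of 864 against 407 for LOC105196182. A further relative, LOC105198673, had 1.77 CPM at 20 °C and 45.0 CPM at 40 °C, a ratio of 25.5-fold (18.7 to 35.6). The least abundant, LOC105196237, had 2 reads at 20 °C and 123 at 40 °C, a ratio of 32.9-fold (8.91 to 275). LOC105196237 and LOC105196234 lie on the same chromosome with 1 gene between them in the annotation, and reads could have been shared between these relatives in the authors' counting.

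The 3 remaining carriers belong to the odorant-binding and pheromone-binding families. General odorant-binding protein 72 (LOC105193332) had 35 reads or 1.51 CPM at 20 °C, 5.77 CPM at 30 °C and 1854 reads or 42.7 CPM at 40 °C, a ratio of 28.3-fold (20.3 to 40.8). Pheromone-binding protein-related protein 6 (LOC105203995) had 29 reads or 1.25 CPM at 20 °C and 1352 reads or 31.2 CPM at 40 °C, a ratio of 24.9-fold (17.3 to 37.4). The relative of lush (LOC105199702), which in the fruit fly is needed to sense the male pheromone cis-vaccenyl acetate, had 35 reads or 1.51 CPM at 20 °C and 1300 reads or 30.0 CPM at 40 °C, a ratio of 19.9-fold (14.2 to 28.6). All 7 carriers thus lay lowest at 20 °C and highest at 40 °C among the 20, 30 and 40 °C libraries. In the 10 °C library 4 of the 7 were listed, with 5.03 CPM for LOC105196182, 3.26 CPM for LOC105198673, 3.16 CPM for LOC105199702 and 1.37 CPM for LOC105193332.

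The sensory receptors found in both lists were at low levels at both temperatures. The deposited lists named 6 such contigs at 20 °C and 14 at 40 °C, and those in a single list were not compared. The 3 receptor contigs, blue-sensitive opsin and a pair of odorant receptors, lay below 30 °C at both temperatures and under the limit for counting. They summed to 0.517 CPM at 20 °C, 2.72 CPM at 30 °C and 0.599 CPM at 40 °C. Opsin, the light receptor of the eye, had 0.215 CPM at 20 °C and 0.323 CPM at 40 °C. A change in how much antennal tissue each library held was not tested.

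**Figure D2:**
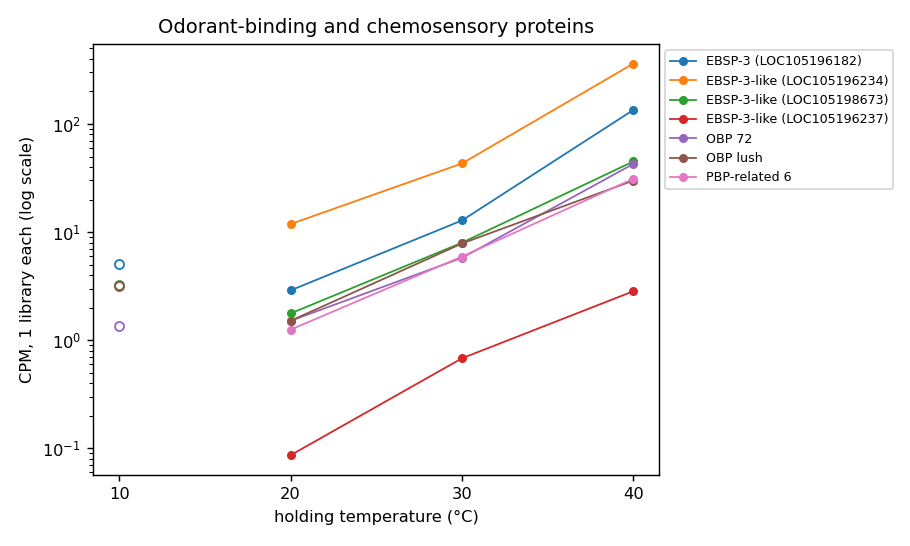
Levels of the 7 odorant-binding and chemosensory contigs in CPM (log scale) by holding temperature, with filled points for the 20, 30 and 40 °C libraries and open circles for 10 °C where the contig was listed there. EBSP is ejaculatory bulb-specific protein, OBP odorant-binding protein and PBP pheromone-binding protein, and each of the 7 lines climbs from 20 to 30 °C and again to 40 °C.

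Signalling genes followed with some of the steepest ratios on few reads. The contig annotated as nuclear receptor subfamily 4 group A member 2 (LOC105194704), a transcription factor of the Nr4a family that in mammals is an early response gene, had 4 reads or 0.172 CPM at 20 °C, 217 reads or 5.67 CPM at 30 °C and 1129 reads or 26.0 CPM at 40 °C. Its ratio of 151-fold was the highest of the 48 counted contigs in its set, with an interval from 58.8 to 555 set by the 4 reads at 20 °C. Phosphodiesterase 8A (LOC105195169), annotated as a high affinity enzyme that degrades cyclic AMP, had 11 reads at 20 °C, 59 at 30 °C and 1276 at 40 °C, or 0.474, 1.54 and 29.4 CPM. Its level was 62.0-fold (34.5 to 125) higher at 40 than at 20 °C. The annotated span of LOC105195169 overlaps 3 other genes and that of LOC105194704 overlaps 2, so the source of the reads of both is uncertain. The transcription factor list as a whole did not go one way: of 12 contigs 4 were counted, 1 was higher and 1 lower.

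The other counted contig of that list past 2-fold was a relative of the RE1-silencing transcription factor (LOC105204846), a repressor of neuronal genes in vertebrates. It had 427 reads at 20 °C, 1765 at 30 °C and 353 at 40 °C, or 18.4, 46.1 and 8.13 CPM, and was 2.26-fold (1.96 to 2.61) lower at 40 than at 20 °C. On the FPKM scaling it was 1.02-fold lower, so the pair of levels was nearly equal there. A second contig of the same gene identifier had a log2 ratio of -0.07.

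Among neuronal genes 8 contigs were listed, 7 were counted and 2 were higher at 40 °C, with a list median of -0.11 on the authors' scaling and 0.89 on the FPKM scaling, against 0.16 and 1.03 for all ant contigs. Synaptotagmin 1 (LOC105198222), the calcium sensor of synaptic vesicle release, had 89 reads or 3.84 CPM at 20 °C, 12.8 CPM at 30 °C and 1328 reads or 30.6 CPM at 40 °C, a ratio of 7.98-fold (6.43 to 10.0). The muscarinic acetylcholine receptor gar-1 (LOC105205262) had 8 reads at 20 °C and 337 at 40 °C, a ratio of 22.5-fold (11.3 to 52.6). The abundant channel genes were instead lower at both temperatures than at 30 °C. The type A voltage-dependent calcium channel (LOC105195981), which triggers transmitter release, had 1979 reads or 85.3 CPM at 20 °C, 8386 reads or 219 CPM at 30 °C and 3430 reads at 40 °C, a CPM-based 20 over 40 °C ratio of 1.08-fold (1.02 to 1.14). On the FPKM scaling that ratio was 0.485, so the channel was then the higher at 40 °C. The unc-79 homologue (LOC105200842), a subunit of the sodium leak channel complex, had 86.1 CPM at 20 °C, 238 CPM at 30 °C and 44.4 CPM at 40 °C, a 20 over 40 °C ratio of 1.94-fold (1.82 to 2.07) that was 0.872 on the FPKM scaling.

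Enzymes of detoxification and of lipid synthesis gave a mixed picture on the authors' scaling. Cytochromes P450, oxidases of toxins, hormones and cuticular hydrocarbons, had 7 contigs, of which 5 were counted and 2 were higher at 40 °C, with a median log2 ratio of 0.30. On the FPKM scaling 4 of the 5 were higher and the median was 1.17. All counted ant contigs had 28.9% higher with a median of 0.16, and 51.3% with a median of 1.03 on the FPKM scaling. Cytochrome P450 6a20 (LOC105203261) had 378 reads or 16.3 CPM at 20 °C, 1505 reads or 39.3 CPM at 30 °C and 9098 reads or 210 CPM at 40 °C, a ratio of 12.9-fold (11.6 to 14.3). That contig carried most of the reads of the list, which summed to 27.4 CPM at 20 °C, 79.7 CPM at 30 °C and 225 CPM at 40 °C. A P450 4C1-like contig (LOC105206679) had 4 reads at 20 °C and 107 at 40 °C, a ratio of 14.3-fold (5.43 to 53.5), whereas 2 other 4C1-like contigs, LOC105193888 and LOC105205339, differed by 1.14-fold and 1.19-fold in opposite directions and were both the higher at 40 °C on the FPKM scaling.

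The 7 counted contigs of fatty acid and hydrocarbon synthesis had a median log2 ratio of 0.52, with 1 higher, and a median of 1.06 with 4 higher on the FPKM scaling. Among all counted ant contigs 28.9% were higher with a median of 0.16, and on the FPKM scaling 51.3% with a median of 1.03. The higher contig was the very long chain fatty acid elongase ELOVL1-like (LOC105193147), with 5 reads or 0.215 CPM at 20 °C, 67 reads or 1.75 CPM at 30 °C and 390 reads or 8.99 CPM at 40 °C, a ratio of 41.7-fold (17.7 to 129). Elongases of this family make the long chains from which insects build cuticular wax. Fatty acid synthase, which makes the initial chain, had 5 contigs with log2 ratios of 0.27 (LOC105202181), 0.55 (LOC105207003), 0.88 (LOC105205264), -0.10 (LOC105207009) and -0.40 (LOC105205242). With the pseudocount all 5 lay within 2-fold on the authors' scaling, and they differed in sign. The plain CPM ratios of LOC105205264 and LOC105207003 were 2.24-fold and 2.01-fold higher at 40 °C. On the FPKM scaling all 5 log2 ratios were positive, LOC105205242 with 0.17.

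Secreted and storage proteins of the fat body and blood were also found among the contigs higher at 40 °C. Vitellogenin-3 (LOC105205783), a relative of the yolk precursor that also serves as a storage and antioxidant protein in workers of some social insects, had 5 reads at 20 °C, 57 at 30 °C and 275 at 40 °C, a ratio of 29.4-fold (12.5 to 91.3). A hexamerin-like storage protein (LOC105204474) had 3, 29 and 111 reads, a ratio of 19.8-fold (6.597 to 97.4). Both are fat body markers, and their summed level went from 0.345 CPM at 20 °C to 8.90 CPM at 40 °C. The direction was fixed by the choice of contigs, since both stood below 30 °C at 20 °C and above it at 40 °C.

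Carriers of hydrophobic ligands in the blood were likewise found there. The beta-carotene-binding protein (LOC105203827) had 36 reads or 1.55 CPM at 20 °C, 5.59 CPM at 30 °C and 1319 reads or 30.4 CPM at 40 °C, a ratio of 19.6-fold (14.1 to 28.1). A juvenile hormone-binding protein-like contig (LOC105203826), a carrier of the hormone that paces insect maturation, had 20 reads or 0.862 CPM at 20 °C, 2.74 CPM at 30 °C and 367 reads or 8.46 CPM at 40 °C, a ratio of 9.81-fold (6.261 to 16.3). The annotated span of LOC105203826 overlaps other genes, so its reads are uncertain. Ornithine aminotransferase (LOC105201521), a mitochondrial enzyme that links arginine to proline, had 12 reads at 20 °C, 92 at 30 °C and 616 at 40 °C, a ratio of 27.4-fold (15.6 to 53.4).

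Immune effectors went in opposite directions. The peptidoglycan-recognition protein 1-like contig (LOC105203112), a sensor of bacterial cell wall, had 150 reads or 6.46 CPM at 20 °C, 647 reads or 16.9 CPM at 30 °C and 1774 reads or 40.9 CPM at 40 °C, and was 6.32-fold (5.35 to 7.52) higher at 40 °C. The annotated span of LOC105203112 overlaps 74 other genes, so its reads are uncertain. Hymenoptaecin (LOC105196795), an antibacterial peptide of bees and ants, had 577 reads or 24.9 CPM at 20 °C, 33 reads or 0.862 CPM at 30 °C and 10 reads or 0.230 CPM at 40 °C. It was 108-fold (58.2 to 226) lower at 40 than at 20 °C, or 48.5-fold lower on the FPKM scaling, and it had 233 reads or 7.76 CPM at 10 °C. A hemolymph lipopolysaccharide-binding protein-like contig (LOC105192858), a lectin of insect blood, was also the lower at 40 °C, with 116 reads at 20 °C, 71 at 30 °C and 26 at 40 °C, a 20 over 40 °C ratio of 8.34-fold (5.42 to 13.3). The serine protease gd-like contig (LOC105199125), whose fly relative cuts in the cascade that patterns the embryo, had 3, 36 and 297 reads and was 52.9-fold (17.9 to 258) higher at 40 °C.

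Transporters and enzymes of fuel use were among them. The facilitated trehalose transporter Tret1-2 (LOC105197048), which moves the blood sugar of insects across membranes, had 59 reads at 20 °C, 17 at 30 °C and 4 at 40 °C, a 20 over 40 °C ratio of 27.6-fold (10.2 to 104.6), and 223 reads or 7.43 CPM at 10 °C. Hydroxypyruvate isomerase (LOC105192861), a sugar acid enzyme, had 257 reads or 11.1 CPM at 20 °C, 169 reads or 4.42 CPM at 30 °C and 76 reads or 1.75 CPM at 40 °C, a ratio of 6.32-fold (4.88 to 8.28). Very long-chain specific acyl-CoA dehydrogenase (LOC105200554), which begins the burning of long fatty acids in mitochondria, had 64, 36 and 5 reads, a ratio of 23.9-fold (9.74 to 76.2). Solute carriers had 8 contigs, of which 3 were counted, 1 was lower and 1 was higher at 40 °C. The amino acid transporter SNAT9 (LOC105204341), which in mammals reports lysosomal arginine to the growth regulator mTORC1, had 144, 75 and 22 reads, a ratio of 12.2-fold (7.78 to 20.1). The transporter XTRP3 (LOC105205756) went the other way, with 5 reads at 20 °C, 36 at 30 °C and 140 at 40 °C, and an interval from 6.27-fold to 46.8-fold higher at 40 °C. Of the 3 contigs for sugar metabolism, 2 were lower at 40 °C on both scalings and the third, pyruvate dehydrogenase kinase (LOC105196176), had a log2 ratio of -0.07, or 1.00 on the FPKM scaling.

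Peptidases were split. Of 9 contigs 6 were counted, 1 was higher at 40 °C and 2 were lower. The list median was -0.04 on the log2 scale, a value that was 0.95 on the FPKM scaling. For all counted ant contigs the medians were 0.16 and 1.03, with 28.9% higher and 10.2% lower on the authors' scaling. The lower pair were carboxypeptidases: the secreted carboxypeptidase Q-like contig (LOC105201454) had 101 reads at 20 °C, 15 at 30 °C and 1 at 40 °C, a ratio of 189-fold (33.1 to 7533). The cytosolic carboxypeptidase 1-like contig (LOC105199439), whose relatives trim glutamate from tubulin, had 171, 112 and 49 reads, a ratio of 6.53-fold (4.73 to 9.16), and 413 reads or 13.8 CPM at 10 °C.

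Other contigs lower at 40 °C had varied annotations. Teneurin-m (LOC105198996), an adhesion protein of synapses, had 53, 14 and 2 reads at 20, 30 and 40 °C, a ratio of 49.6-fold (13.1 to 420). Strawberry notch (LOC105195436), a nuclear factor of Notch signalling in the fruit fly, had 54, 24 and 4 reads, a ratio of 25.2-fold (9.31 to 96.0). Cilia- and flagella-associated protein 36 (LOC105203103) had 82, 49 and 10 reads, a ratio of 15.3-fold (7.93 to 33.2). Its annotated span overlaps 19 other genes, so its reads are uncertain. A glutamic acid-rich protein-like contig (LOC105197879) had 72, 39 and 5 reads, a ratio of 26.9-fold (11.0 to 85.4). A reverse transcriptase of a jockey-like mobile element (LOC105204251) had 86, 40 and 14 reads, a ratio of 11.5-fold (6.49 to 21.9).

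Heat-shock genes barely entered the comparison, because few were listed at 20 °C. The lists named 27 chaperone contigs at 40 °C and 6 at 20 °C, with 2 in both, and small heat shock proteins had 2 contigs listed at 40 °C and 0 at 20 °C. Of the 2 chaperones 1 was counted, the hsp70-Hsp90 organizing protein 1-like contig (LOC105194482), a co-chaperone that joins both chaperones. It had 48 reads at 20 °C, 29 at 30 °C and 6 at 40 °C and was lower at 40 than at 20 °C, with a counting interval from 6.39-fold to 42.8-fold. With log2(CPM + 1) it passed 2-fold on the authors' scaling with -1.43 and missed it on the FPKM scaling with -0.96, as did the box A-binding factor-like contig (LOC105203843) with -1.38 and -0.90.

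**Figure D3:**
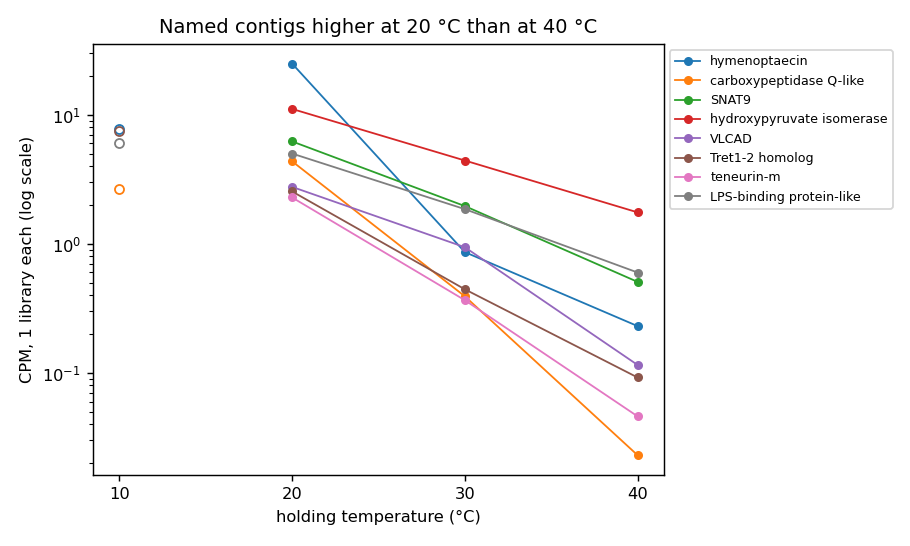
Levels in CPM (log scale) by holding temperature of contigs that were higher at 20 °C than at 40 °C, with filled points for the 20, 30 and 40 °C libraries and open circles for 10 °C where listed. SNAT9 is the amino acid transporter, VLCAD very long-chain acyl-CoA dehydrogenase and LPS lipopolysaccharide. Hymenoptaecin starts highest, at 24.9 CPM, and the lowest point at 40 °C, carboxypeptidase Q-like, stands on 1 read.

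The contigs that lay on the same side of 30 °C at both temperatures are those in which the 40 to 20 °C ratio was not fixed by the choice. Of the 118 above at both, 65 were counted, with 8 (12.3%) higher at 40 °C, 1 (1.54%) lower and a median log2 ratio of 0.14. All contigs above at both, ant or not, gave 12.2% and 3.06%. Of the 144 below at both, 66 were counted, with 1 (1.52%) higher, 1 (1.52%) lower and a median of -0.08, against 1.40% each way for all contigs below at both. The shares of ant contigs were thus near the background. On the FPKM scaling 29 of the 65 and 24 of the 66 were higher and 0 were lower. The typical contig above 30 °C at both temperatures had a median of 1.03 CPM at 20 °C, 0.183 CPM at 30 °C and 1.014 CPM at 40 °C. For those below at both the medians were 0.690, 2.72 and 0.772 CPM. On the authors' scaling most of the counted contigs were thus within 2-fold in log2(CPM + 1). On the FPKM scaling 36 of the 65 and 42 of the 66 were within 2-fold too, with median log2 ratios of 0.94 and 0.84. At levels near 1 CPM the pseudocount pulls ratios together. LOC105194817, with a plain ratio 3.99-fold higher at 40 °C, and LOC105204109, 2.16-fold lower, both fell within 2-fold that way.

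**Figure D4:**
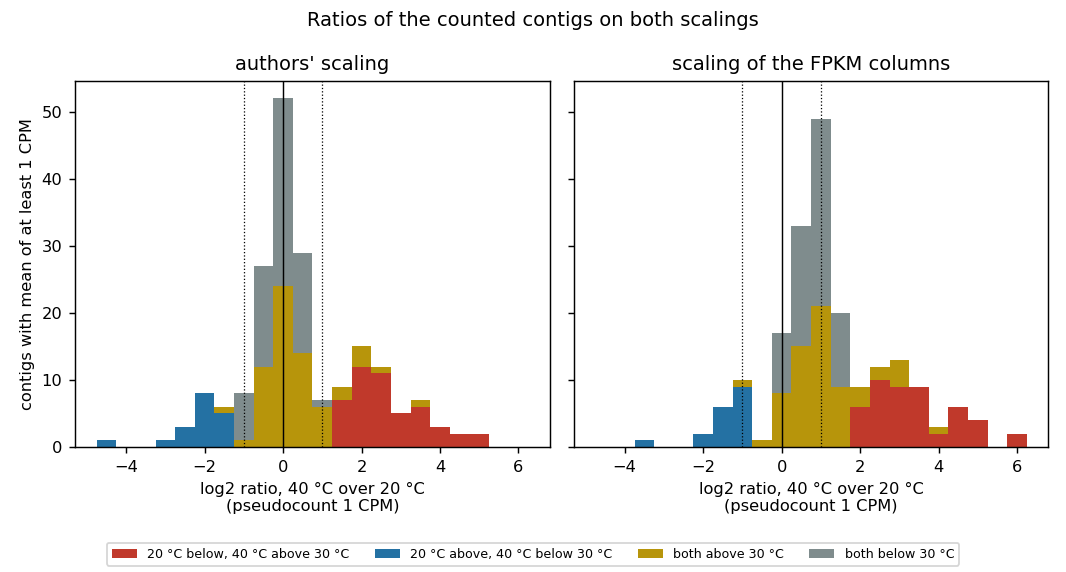
Number of counted ant contigs by log2 ratio of 40 over 20 °C with a pseudocount of 1 CPM, on the authors' scaling (left) and on the scaling of the FPKM columns (right), stacked by the side of 30 °C. Dotted lines mark 2-fold. The contigs on the same side of 30 °C centre near 0 on the left, with a median of -0.02, and lie higher on the right, with a median of 0.89.

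Histones had the steepest plain CPM ratios of the counted contigs above 30 °C at both temperatures. With the pseudocount, the uncharacterised LOC105205068 had a log2 ratio of 2.29, between the histone values of 3.48 and 2.24. A histone H2A contig (LOC105200468) had 16 reads or 0.690 CPM at 20 °C, 5 reads or 0.131 CPM at 30 °C and 774 reads or 17.8 CPM at 40 °C, a ratio of 25.9-fold (15.8 to 45.5). A histone H3 contig (LOC105200070) had 11 reads at 20 °C, 3 at 30 °C and 259 at 40 °C, a ratio of 12.6-fold (6.92 to 25.5). Both package DNA and both were past 2-fold on either scaling. At 10 °C they had 3.33 and 1.60 CPM. Histone genes occur in many near-identical copies, so the gene behind these reads is uncertain.

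Venom and secreted proteins differed from one another. Venom allergen 4 (LOC105205100), a protein of fire ant venom, had 63 reads or 2.72 CPM at 20 °C, 3 reads or 0.0784 CPM at 30 °C and 18 reads or 0.415 CPM at 40 °C, and was 6.55-fold (3.83 to 11.7) lower at 40 °C. On the FPKM scaling the plain ratio was 2.94-fold, but the log2 ratio with the pseudocount went from -1.39 to -0.78 and no longer passed 2-fold. A venom allergen 2-like contig (LOC105193473) had 207 reads or 8.92 CPM at 20 °C, 3.19 CPM at 30 °C and 930 reads or 21.4 CPM at 40 °C, and was 2.40-fold (2.06 to 2.81) higher. A venom allergen 2 contig (LOC105206474) lay below 30 °C at both and had a log2 ratio of 0.48.

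The remaining contigs of this kind were chosen after their values were seen, as were the next 3 uncharacterised genes. Major royal jelly protein 1-like (LOC105194918), of a family of secreted proteins of bees and ants, had 92 reads at 20 °C and 507 at 40 °C, a ratio of 2.95-fold (2.36 to 3.72). Tyrosine aminotransferase (LOC105197229), the initial enzyme of tyrosine breakdown, had 55 reads at 20 °C and 355 at 40 °C, a ratio of 3.45-fold (2.59 to 4.67). The abundant uncharacterised LOC105202242 had 53.2 CPM at 20 °C, 17.6 CPM at 30 °C, 192 CPM at 40 °C and 135 CPM at 10 °C, a ratio of 3.60-fold (3.39 to 3.83).

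Genes with no known product made up 102 of the 339 contigs. Of the 63 counted among them, 21 (33.3%) were higher at 40 °C and 3 (4.76%) were lower, and the median log2 ratio was 0.21. The 134 counted contigs with a protein name had 36 (26.9%) higher and 17 (12.7%) lower, with a median of 0.13. Among all counted contigs of both lists the shares were 24.0% and 15.3%, and the difference between named and uncharacterised contigs was not tested. LOC105197153 was the most abundant of all in reads at 40 °C, with 798 reads or 34.4 CPM at 20 °C, 3986 reads or 104 CPM at 30 °C and 16993 reads at 40 °C, a ratio of 11.4-fold (10.6 to 12.2). LOC105203006 had 1135 reads or 48.9 CPM at 20 °C and 14563 reads or 336 CPM at 40 °C, a ratio of 6.86-fold (6.46 to 7.30). Per transcript length at 40 °C, the FPKM of LOC105203006 was 781 and that of LOC105197153 was 532, in the range of the ejaculatory bulb-specific proteins.

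Tissue markers among the listed contigs were few, since a list holds only contigs that differed from 30 °C. Of 24 markers looked for by name, 10 were listed at 20 °C, 14 at 40 °C and 5 were among the ant contigs of both lists. Muscle, gut, ovary and haemocyte markers had 0 contigs in both lists. Fat body markers summed to 0.345 CPM at 20 °C and 8.90 CPM at 40 °C, neuronal markers to 6.25 and 33.0 CPM, and venom gland markers to 12.7 and 23.7 CPM. These sums cover only contigs in both lists. Vitellogenin-3, the hexamerin-like contig and synaptotagmin 1 stood below 30 °C at 20 °C and above it at 40 °C. Their direction was therefore fixed by the choice of contigs. Both fat body contigs had few reads at 20 °C, 5 and 3. Of the pair of neuronal markers, synaptotagmin 1 held the difference and synaptotagmin-5 (LOC105197710) had nearly equal levels of 2.41 and 2.37 CPM. The venom gland markers were split. Venom allergen 2-like went from 8.92 to 21.4 CPM and venom allergen 2 from 1.08 to 1.89 CPM. Venom allergen 4 was 6.55-fold lower at 40 °C on the authors' scaling. The part of tissue proportions in the differences was not tested.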

How the data were processed

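Per the submitters' processing notes, reads were handled with Trimmomatic 0.38, FastQC 0.11.7, Bowtie 1.1.2 and RSEM; the assembler, the versions of the annotation databases and any genome build are not given in the sources used here. The 3 deposited tables list contigs that differ from the 30 °C library. They hold the expected counts of reads that the authors estimated, FPKM values, log2 normalized values, the authors' fold change and p-value, and annotation scores, per the file headers. The deposited p-values and scores were not used, and the deposited fold change served only to describe the limit of the lists. A single line of the 40 °C list was not analysed here.

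Expected counts as deposited were divided by the scaled library sizes recovered from the authors' log2 columns to give CPM. The log2 ratio used a pseudocount of 1 CPM. Ratios of CPM have exact Clopper-Pearson 95% intervals that cover counting error only. With 1 library per temperature no test was made, and a result is a difference between libraries. The 339 contigs and the 29 gene lists were chosen with earlier results of these data known, and false matches in the lists were removed by hand after their names were seen. Genes were named if they had a protein name and 50 reads or more in either library: the 15 largest and 15 smallest ratios and up to 6 of the most abundant contigs of each list. Others were chosen after their values were seen. Identifiers were matched to RefSeq names of UNIL_Sinv_3.0 (263 of 322), whose gene positions served only for order and overlap between genes. Overlap is given above for some genes only. Others named here overlap annotated genes too, such as LOC105197048 and LOC105198996 with 2 each. Other pseudocounts, filters, limits, scalings and member rules were tried. The ratio and its interval were tested on simulated data. Tables and figures used matplotlib 3.10.9, SciPy 1.17.1, numpy 2.4.6 and pandas 2.3.3 under Python 3.11.15.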

Additional observations from a re-analysis of the deposited data

Results flagged for a closer look

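The 10 °C library took no part in the comparison of 40 with 20 °C. Of the 339 ant contigs 147 were also listed at 10 °C, and 80 of these stood above the 30 °C library there while 67 stood below it. Among the 51 contigs below 30 °C at 20 °C and above it at 40 °C, 13 were listed at 10 °C, each below. Among the 26 contigs above at 20 °C and below at 40 °C, 11 were listed, each above. All of these lists share the 30 °C library, so their directions are not independent, and no test was made.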

How the results depend on the processing

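No paired analysis was possible because each temperature had 1 library, and leaving out a replicate was not possible for the same reason. With 57 contigs higher, 20 lower, a median log2 ratio of 0.16, 1 list past 2-fold and 41 named genes past 2-fold on the authors' scaling, a pseudocount of 5 CPM gave 33 higher, 6 lower and 24 named genes. The FPKM scaling gave 101 higher, a median of 1.03 and 3 lists. A mean of at least 10 CPM gave 19 higher, 2 lower and a median of 0.45. Every contig of both tables gave 88 higher and 56 lower, and a 4-fold limit left 6 lower. Keeping the contigs on the same side of 30 °C, chosen after seeing the data, gave 9 higher, 2 lower and a median of -0.017. The cause was not tested beyond the smaller or larger sets these settings make. The other settings (a pseudocount of 0.1 CPM, no filter, summed contigs, the ant gene identifier alone, the whole interval past 2-fold, both scalings and, added after seeing the data, the list patterns as first written) kept the counts within 1.5 times, while the median was 0.03 with no filter and 0.25 with the identifier alone. No value past 2-fold changed sign, but on the FPKM scaling 16 of 77 named contigs and 2 of 5 list medians, all under 2-fold on the authors' scaling, did. The peptidase median also turned positive, to 0.10, with no filter and with the identifier alone. Over all settings of single named genes, 190 kept their side of 2-fold, 22 passed it newly and 19 no longer passed it. The search for heat shock elements in promoters was not run, since no promoter sequence was used here. Counts under 10 reads limit the ratios at 20 °C for 92 contigs and at 40 °C for 47.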

Other observations

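Of 260 genes of the comparison that could be placed in the order of the annotation, 13 pairs had at most 2 genes between them. In 7 of these both genes belonged to the same set by side of 30 °C. The share over pairs that are not neighbours was not computed, so the count of 7 is a description only. A pair of aromatic-L-amino-acid decarboxylase-like genes, which make dopamine and serotonin, lay next to each other with log2 ratios of 0.55 (LOC105197234) and -0.25 (LOC105197233). A pair of farnesyl pyrophosphate synthase-like genes, which supply the precursor of juvenile hormone, had 2 genes between them and log2 ratios of -1.19 (LOC105207424) and 0.25 (LOC105197081). LOC105207424 was under the limit for counting.

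14 genes had more than 1 contig among the 339. The contigs of unc-79 (LOC105200842) ranged from -0.94 to 0.33 on the log2 scale and those of the tubulin polyglutamylase TTLL6 (LOC105203630) from 0.15 to 0.85.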
